A study of Mus musculus with 12 samples.

Results

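Interferon response genes are the genes that cells switch on when an interferon binds its receptor. In the left ventricle apex of mice lacking the long noncoding RNA lincRNA-p21, and of their control littermates, 39 of them were examined across 4 groups of hearts. The genes are a set listed by name, drawn up with earlier results of these data known, so counts over the set are descriptions. All 39 were found by symbol among the 56350 genes of the expression table, and all 39 were among the 13916 genes tested, those with 10 or more normalised reads in 3 or more libraries.

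Polyadenylated RNA was sequenced from 12 samples, 3 per group, 8 weeks after an operation. Each sample is called a heart below, though the labels do not say whether the samples came from separate animals. The groups were knockout hearts after TAC, knockout hearts after sham surgery, control hearts after TAC and control hearts after sham surgery. TAC, transverse aortic constriction, narrows the aorta so that the left ventricle pumps against a raised pressure, and sham animals are operated on without the narrowing. The knockout is global, so lincRNA-p21 (gene symbol Trp53cor1) is missing from every cell type of the heart. The controls are heterozygous littermates and not wild-type mice, so every animal carries at least one disrupted allele. The labels give no strain, sex, age or origin of the replicates. The p-values are set against the spread between samples within the 4 groups, which may not be a spread between animals. The comparisons ask how the interferon response genes stood after pressure overload, and whether loss of lincRNA-p21 altered that.

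Type I interferons signal through a receptor with the kinases Jak1 and Tyk2 to a factor complex that contains Stat2 and Irf9, which binds a DNA element called the interferon-stimulated response element (ISRE). Type II interferon, made mainly by T and NK cells, acts through Jak1 and Jak2 on another element, the gamma-activated site (GAS), and through Irf1. The products block viral translation, sense and cut viral RNA, attach the ubiquitin-like protein Isg15, attack vacuoles that hold parasites, and load peptides on MHC class I molecules. In the heart, resident macrophages, endothelial cells and fibroblasts as well as cardiomyocytes can carry such a program.

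The element bound by the type I complex was looked for in the promoters. RefSeq promoters on GRCm38.p6, from 250 bases before to 50 bases after a gene's start, were at hand for 30 of the 39 genes. The ISRE core GAAANNGAA, searched on both strands, was present in 19 of the 30 (63.3%), against 9.76% of 27025 genes of the promoter table. The GAS letters TTCNNNGAA were present in 9 of the 30 (30%), against 9.55% of all genes, and in Bst2 a match of each motif overlapped. Shown here are stretches around the core from genes to which the results below return, with the core in capitals. They lie at chr3:142559980-142560034 on the plus strand for Gbp3, at chr11:58199502-58199550 on the plus strand for Igtp, at chr2:122147528-122147576 on the plus strand for B2m, at chr8:71537568-71537622 on the minus strand for Bst2 and at chr17:78882523-78882574 on the minus strand for Eif2ak2. The stretch of Ifit1, at chr19:34640760-34640833 on the plus strand, is shown as an example with several copies. Capitals that begin with TTC are the core read from the opposite strand.
Gbp3: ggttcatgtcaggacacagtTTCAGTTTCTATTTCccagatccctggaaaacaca
Igtp: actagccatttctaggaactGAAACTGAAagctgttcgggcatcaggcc
B2m: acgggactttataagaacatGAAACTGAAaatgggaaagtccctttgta
Bst2: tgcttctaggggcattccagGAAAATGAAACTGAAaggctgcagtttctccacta
Eif2ak2: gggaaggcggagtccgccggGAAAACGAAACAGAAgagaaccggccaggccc
Ifit1: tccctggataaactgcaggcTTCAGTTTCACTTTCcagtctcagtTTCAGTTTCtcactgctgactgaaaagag
These are matches of letters and not measured binding. The windows of Ifit2, Tap1, Dtx3l, Irf7 and Irf9 held no ISRE core, and one of Ifit2 held the GAS letters. A missing match says nothing of the factor itself.

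Libraries held from 10323605 to 13238934 assigned reads, and 0.0672% to 0.112% of each went to the 39 genes. Values are given as normalised reads, the authors' reads per gene divided by one size factor per library. Mitochondrial genes took 12.5% to 19.99% of reads, with knockout TAC hearts at the top. Trp53cor1 had no read in any of the 6 knockout libraries and 11 reads over 4 of the 6 control libraries, a difference in normalised level that did not pass 0.05 (exact permutation test over 12 libraries, two-sided, p = 0.0606). Control sham replicate 3 stood apart from all other libraries on the second principal component, and knockout TAC replicate 3 stood apart from the other 2 of its group there, so results that turn on either are given with and without it. Across all tested genes the change after TAC in controls went with transcript length (Spearman's rho = 0.41 over 13906 genes) and with GC content (rho = -0.44), while in knockouts the correlation with length was -0.01 and with GC -0.35. For knockout against control after TAC the correlations were -0.47 with length and 0.16 with GC. Values with this trend taken out are given where they end a call.

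**Figure D1:**
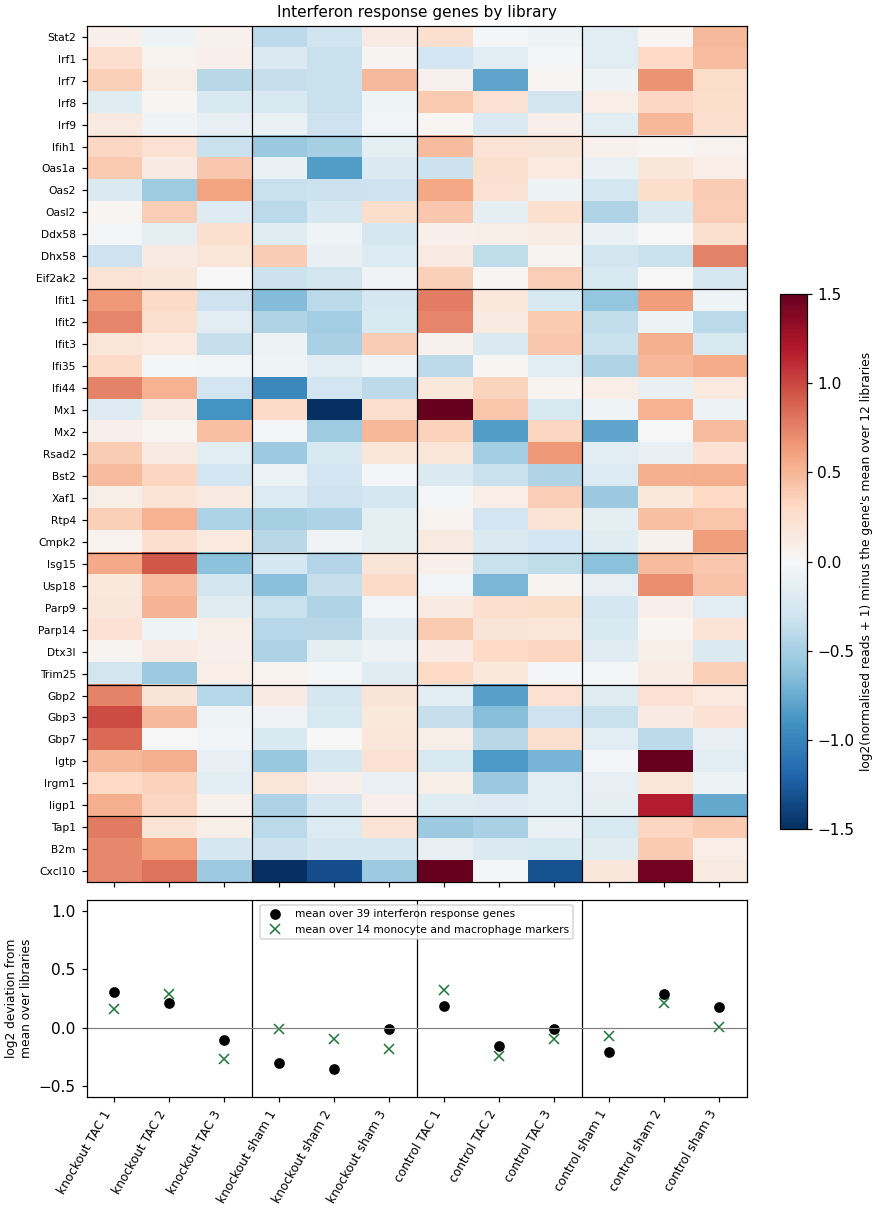
The 39 genes (rows, grouped by role) in the 12 libraries (columns): colours give log2(normalised reads + 1) minus the gene's mean over all libraries, with the scale ending at 1.5 in either direction. The lower panel gives each library's mean over the 39 genes (dots) and over 14 monocyte and macrophage markers (crosses). Knockout sham replicates 1 and 2 hold the lowest gene means, -0.31 and -0.36, and knockout TAC replicate 1 the highest, 0.31.

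Expressed per length, B2m, the light chain of MHC class I, was the most abundant of the genes at 325 RPKM (reads scaled to gene length and library size), averaged over the 12 libraries. Bst2, the membrane protein tetherin that holds budding virions to the cell, followed at 29.1, and Ifi35, a regulator of innate signalling, at 9.98. The least abundant were the GTPases Mx1, which can block influenza viruses in mice, at 0.24, and Irgm1 at 0.35, with the chemokine Cxcl10 at 0.44. Mx1 had 2 to 29 reads per library and Cxcl10 2 to 36, so their differences carry a large counting error.

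Few of the genes passed the test after TAC. In the controls, 17 of the 39 genes were above their sham level (50.5% of all tested genes were) and 22 below it, and 2 passed the test, Ifit2 as a rise and Bst2 as a fall (limma-trend on log2(value + 1), Benjamini-Hochberg adjusted p under 0.05 over all tested genes). That is 5.13% of the set, against 21.6% of all tested genes called in this comparison. In the knockouts, 37 of the 39 lay above their sham level, against 49.1% of all tested genes, with a median difference of 0.31 on the log2 scale, but none passed, where 0.00719% of all tested genes did. The 2 exceptions were the RNA sensor Dhx58 and the ubiquitin ligase Trim25. At an unadjusted p under 0.05 the knockouts had 11 of the 39, all higher (28.2%, against 3.17% of all tested genes), and edgeR and DESeq2 also called none at an adjusted p under 0.05. The controls' median difference was -0.07, and the median over all tested genes was 0.01 in controls and -0.01 in knockouts.

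For most genes the knockout TAC and knockout sham hearts overlapped. In 10 of the 39 every knockout TAC heart lay above every knockout sham heart (25.6%, against 8.31% of all tested genes): Irf1, Oas1a, Eif2ak2, Ifit2, Ifi35, Xaf1, Cmpk2, Parp14, Dtx3l and Cxcl10. Without knockout TAC replicate 3 the count above sham was 36 of 39 with a median of 0.42, and B2m alone passed. Over the 12 settings that left out 1 library each, 33 to 37 of the 39 stayed above 0, with medians from 0.28 to 0.42. In the controls Ifih1, Eif2ak2, Ifit2, Parp9 and Dtx3l lay above sham without overlap, and Bst2 and Igtp below it, where 17.7% of all tested genes did so in each direction. In the controls the same settings gave 11 to 20 above 0 and medians from -0.21 to 0.02. Without control sham replicate 1, Ifi35, Irf1 and Tap1 passed in the controls besides Ifit2 and Bst2, and without control sham replicate 3, control TAC replicate 1 or control TAC replicate 3 none did.

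**Figure D2:**
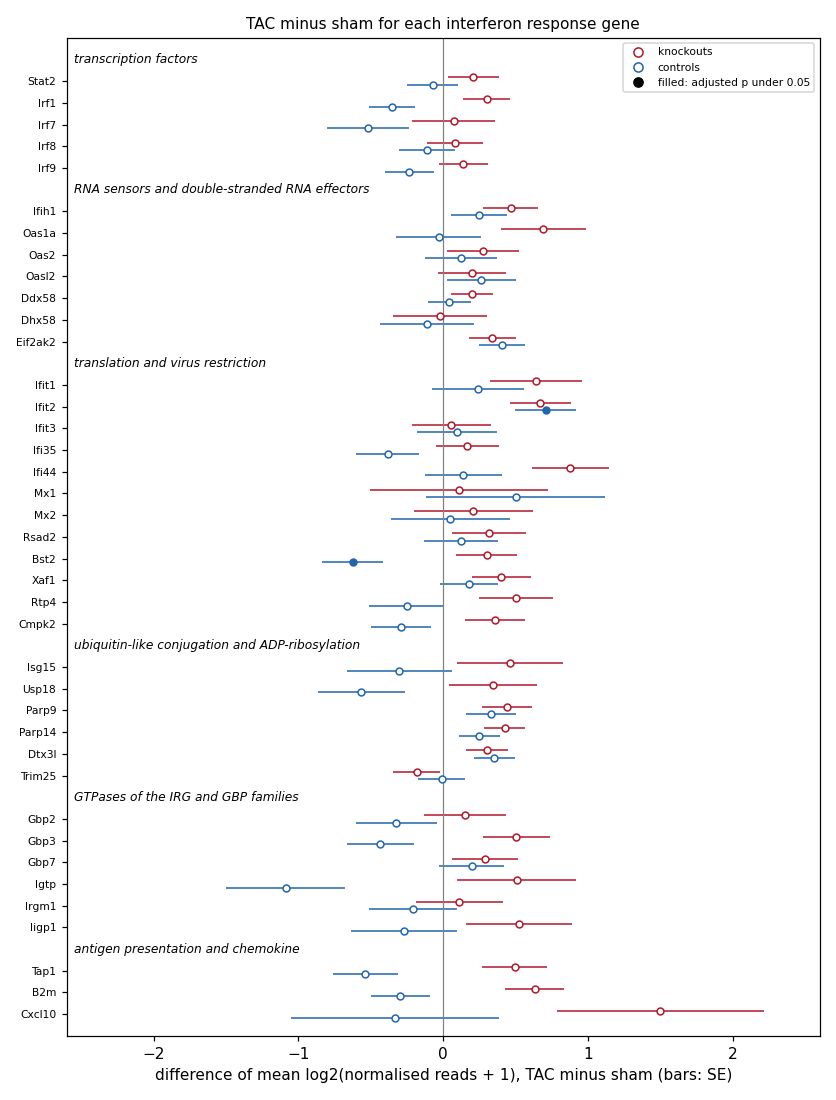
Difference between TAC and sham for each of the 39 genes, knockouts in red and controls in blue, in log2(normalised reads + 1), with bars of 1 SE; filled points passed at an adjusted p under 0.05. Red points lie right of 0 for 37 genes, while blue points fall on both sides, with Ifit2 and Bst2 filled.

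Ifit2, which binds RNA and restrains viral translation, had 298, 211 and 159 normalised reads in knockout TAC hearts, 130.2, 124 and 152 in knockout sham hearts, 298, 197 and 236 in control TAC hearts and 139, 169 and 135 in control sham hearts. Both TAC groups lay above their own sham group without overlap. The difference was 0.71 ± 0.21 (SE) in controls, or 1.63-fold (limma-trend, adjusted p = 0.0262), and 0.67 ± 0.21 in knockouts (adjusted p = 0.613). Averaged over both genotypes it was 0.69 ± 0.15, with the smallest p of the 39 (limma-trend, adjusted p = 0.00783), and it passed in all 12 settings that left out 1 library. In controls the call was lost without control sham replicate 3 (0.65, adjusted p = 0.0651), without control TAC replicate 1 or without control TAC replicate 3. With the length and GC trend taken out, the values were 0.43 in controls (adjusted p = 0.195) and 0.49 on average (adjusted p = 0.0513). Its neighbours in the cluster on chromosome 19, Ifit1 and Ifit3, differed by 0.44 ± 0.23 and 0.08 ± 0.19 on average and did not pass (limma-trend, adjusted p = 0.195 and 0.829), and reads shared between these related genes could be split by the counting.

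Averaged over both genotypes, 5 of the 39 genes rose after TAC and none fell (12.8%, against 14.4% of all tested genes called), a share near the background. Above 0 lay 26 of the 39 (51% of all tested genes did). Besides Ifit2 these were Eif2ak2, the kinase PKR that stops translation on binding double-stranded RNA, and Parp14, Parp9 and Dtx3l. Parp9 and Dtx3l act as a pair, an ADP-ribosyltransferase and a ubiquitin ligase, and all 3 genes sit together on chromosome 16 between positions 35832874 and 35972605 (GRCm38). Parp14 had 565, 461 and 516 normalised reads in knockout TAC hearts, 361, 361 and 426 in knockout sham hearts, 635, 553 and 551 in control TAC hearts and 413, 496 and 560.4 in control sham hearts. It was 0.34 ± 0.10 higher after TAC (limma-trend, adjusted p = 0.0331). Its TAC and sham hearts did not overlap in the knockouts, while in the controls TAC replicates 2 and 3 lay just below sham replicate 3. Parp9 had 316, 399 and 248 normalised reads in knockout TAC hearts, 222, 205 and 272 in knockout sham hearts, 308, 334 and 337 in control TAC hearts and 233, 296 and 251 in control sham hearts, a difference of 0.39 ± 0.12 (limma-trend, adjusted p = 0.0422). Knockout TAC replicate 3 was within the range of the knockout sham hearts, and in the controls the groups did not overlap. Dtx3l had 263, 276 and 267 normalised reads in knockout TAC hearts, 184, 232 and 241 in knockout sham hearts, 278, 314 and 318 in control TAC hearts and 225, 269.6 and 219 in control sham hearts, a difference of 0.33 ± 0.10 (limma-trend, adjusted p = 0.0396), and no TAC heart overlapped the sham hearts of its genotype. Dtx3l and Parp9 overlap on opposite strands, and since the strand setting of the counting is not given, their reads cannot be told apart there.

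Eif2ak2 had 175, 171 and 151 normalised reads in knockout TAC hearts, 121, 125 and 146 in knockout sham hearts, 195, 152 and 195 in control TAC hearts and 129, 151 and 127 in control sham hearts. Every TAC heart lay above every sham heart of its own genotype, and the average difference was 0.37 ± 0.11 (limma-trend, adjusted p = 0.0378). The differences of these 4 genes were small, and each call was lost in 7 (Parp14, Eif2ak2) or 9 (Parp9, Dtx3l) of the 12 settings that left out 1 library, with adjusted p up to 0.118. Parp14 passed without replicate 3 of any of the 4 groups, each left out in turn, or without knockout TAC replicate 2. Eif2ak2 passed without control sham replicate 1 or 2, without control TAC replicate 2, knockout sham replicate 3 or knockout TAC replicate 3. Parp9 passed without control sham replicate 2, knockout sham replicate 3 or knockout TAC replicate 3, and Dtx3l without control sham replicate 2, control TAC replicate 1 or knockout sham replicate 3. With the length and GC trend taken out they were 0.13 for Parp14, 0.31 for Parp9, 0.16 for Dtx3l and 0.19 for Eif2ak2, and none passed.

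**Figure D3:**
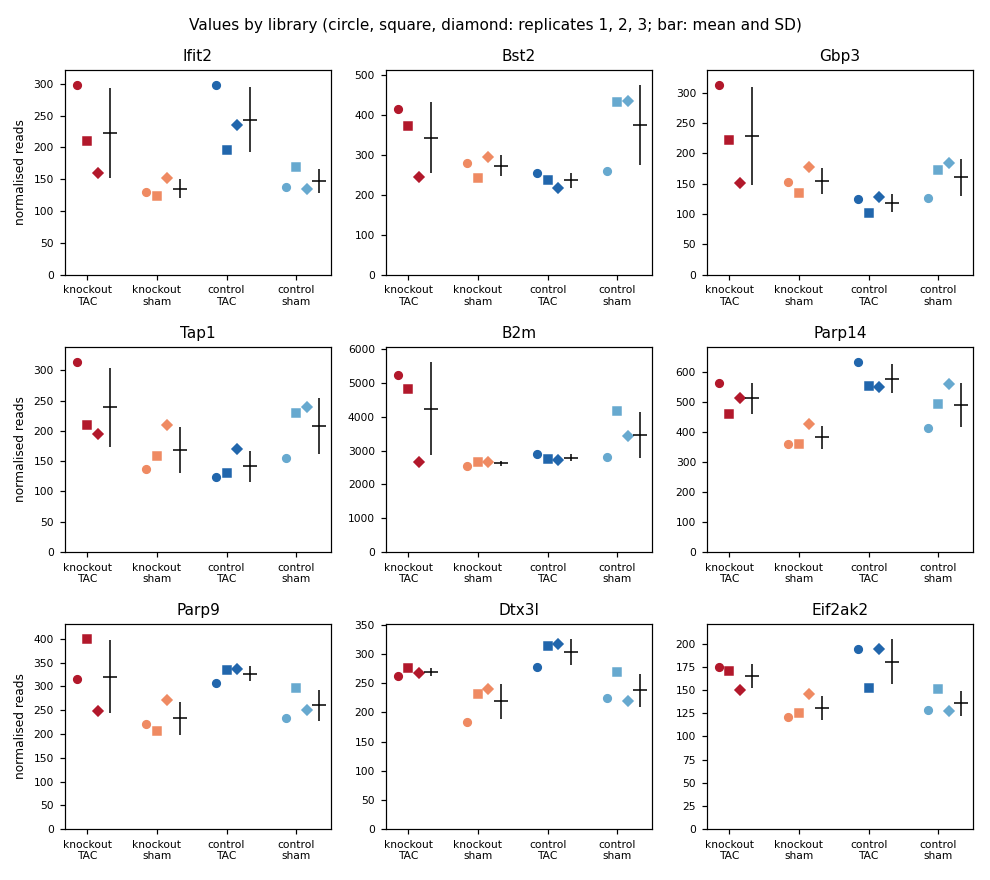
Normalised reads of 9 genes in each library, with knockout TAC, knockout sham, control TAC and control sham hearts from left to right; symbols mark replicates 1 to 3, and the bars give the mean and SD of each group. Ifit2 lies higher after TAC in both genotypes, while Bst2 and Tap1 lie low in the control TAC hearts and B2m is high in 2 of 3 knockout TAC hearts.

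Bst2 was the one gene of the set that fell after TAC in controls. It had 414, 373 and 244 normalised reads in knockout TAC hearts, 281, 244 and 295 in knockout sham hearts, 255, 237 and 218 in control TAC hearts and 259, 432 and 435 in control sham hearts. All 3 control TAC hearts lay below all 3 control sham hearts, with a difference of -0.63 ± 0.21 on the log2 scale (limma-trend, adjusted p = 0.0424). In knockouts the difference was 0.30 ± 0.21 (limma-trend, adjusted p = 0.832) and the groups overlapped. The call in controls was lost in 9 of the 12 settings that left out 1 library, and passed without control sham replicate 1, knockout TAC replicate 1 or knockout TAC replicate 3. Without control sham replicate 3 it was -0.50 (limma-trend, adjusted p = 0.14), and the difference was -0.23 with the length and GC trend taken out (adjusted p = 0.412).

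All 5 transcription factors lay above sham in the knockouts and below it in the controls, and none passed in either. Their differences after TAC ranged from 0.07 to 0.30 in knockouts and from -0.52 to -0.07 in controls. Irf1, the factor of the type II response, had 463, 403 and 407 normalised reads in knockout TAC hearts, 334, 306 and 397 in knockout sham hearts, 317, 347 and 381 in control TAC hearts and 346, 475 and 532 in control sham hearts. Its knockout TAC hearts lay above its knockout sham hearts and above its control TAC hearts. The differences after TAC were 0.30 ± 0.16 in knockouts and -0.35 ± 0.16 in controls (limma-trend, adjusted p = 0.751 and 0.127).

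Irf7, which amplifies type I interferon production, had 234, 194 and 136 normalised reads in knockout TAC hearts, 143, 145 and 255 in knockout sham hearts, 190.3, 105 and 186 in control TAC hearts and 173, 291 and 220.4 in control sham hearts. The ranges of all 4 groups overlapped, and knockout sham replicate 3 was higher than every knockout TAC heart, so that the knockout difference turned below 0 without knockout TAC replicate 1, knockout sham replicate 1 or knockout sham replicate 2 (-0.10, -0.07 and -0.06). Stat2, the subunit of the ISRE-binding complex that activates transcription, had 336, 301 and 333 normalised reads in knockout TAC hearts, 242, 259 and 346 in knockout sham hearts, 375, 313 and 300.2 in control TAC hearts and 283, 325 and 446 in control sham hearts, with control sham replicate 3 the highest of all, and without it the difference in controls was 0.11. Irf9, the subunit that contacts DNA, had 274, 241 and 228 normalised reads in knockout TAC hearts, 232, 201 and 242 in knockout sham hearts, 254, 214 and 263 in control TAC hearts and 222, 353 and 298 in control sham hearts. Its 4 groups overlapped, and it overlaps Rnf31 on the same strand. Irf8, a factor of macrophages and dendritic cells, had 93.7, 108 and 90.5 normalised reads in knockout TAC hearts, 90.5, 83.9 and 101 in knockout sham hearts, 139.5, 125 and 87.6 in control TAC hearts and 114, 132 and 128 in control sham hearts, and all knockout sham hearts lay below all control sham hearts. Without control TAC replicate 3 its TAC difference in controls was 0.08.

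The IRG and GBP families, GTPases that act on vacuoles holding parasites and bacteria, and the antigen presentation genes mostly lay above sham in one genotype and below it in the other. In the knockouts all 6 GTPases lay above sham after TAC, with a median of 0.40, and in the controls 5 of 6 lay below it, with a median of -0.30. Tap1, B2m and Cxcl10 lay above sham in the knockouts, with a median of 0.63, and below it in the controls, with a median of -0.33. The difference of the TAC effects, knockout minus control, was above 0 for all 9, with medians of 0.64 for the GTPases and 1.03 for the 3 others. Single hearts moved these values. In the knockouts 4 of the 6 GTPases lay above sham, with a median of 0.15, without knockout TAC replicate 1, the median was 0.26 without knockout sham replicate 1, and leaving out any other library gave 0.35 to 0.55. In the controls the GTPase median was -0.15 without control TAC replicate 2 and -0.18 without control sham replicate 2, and -0.42 to -0.30 otherwise. The difference of the TAC effects was above 0 for 5 of the 6 GTPases without knockout TAC replicate 1, knockout sham replicate 1 or control TAC replicate 2, and its median ran from 0.32, without control sham replicate 2, to 0.85. For the 3 others that median ran from 0.82 to 1.23. Their median in the controls was -0.15 without control sham replicate 2 and -0.54 without control sham replicate 1.

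Over the whole set that difference was above 0 for 32 of 39 genes, against 50% of all tested genes, with a median of 0.32, and none passed (0%, against 0.309% of all tested genes). At an unadjusted p under 0.05 there were 8, all above 0 (20.5%, against 7.27% of all tested genes): Tap1, B2m, Bst2, Gbp3, Irf1, Igtp, Cmpk2 and Usp18. edgeR called none, and DESeq2 called Tap1, B2m and Bst2. Without knockout TAC replicate 3 B2m, Bst2 and Gbp3 passed, and without control sham replicate 1 Tap1, B2m, Bst2, Irf1 and Ifi35 passed; without control sham replicate 3 none did.

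Tap1, a subunit of the transporter that carries peptides into the endoplasmic reticulum, had 314, 209.6 and 194 normalised reads in knockout TAC hearts, 137, 158 and 209.9 in knockout sham hearts, 124, 129.8 and 171 in control TAC hearts and 154, 229 and 239.9 in control sham hearts. Every knockout TAC heart exceeded every control TAC heart, while each TAC group overlapped its own sham group. The difference of the TAC effects was 1.03 ± 0.32 (limma-trend, adjusted p = 0.133), and the knockout minus control difference after TAC was 0.73 ± 0.22 (adjusted p = 0.0523). The latter passed with edgeR, with DESeq2, with the replicate number as a block and with the compared libraries alone. It also passed without the filter on low values and with a filter of 50. Tap1 overlaps Psmb9 on the opposite strand.

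B2m had 5239, 4827 and 2673 normalised reads in knockout TAC hearts, 2547, 2660.3 and 2676 in knockout sham hearts, 2911, 2738 and 2715 in control TAC hearts and 2807, 4169.8 and 3419 in control sham hearts. Knockout TAC replicates 1 and 2 were the highest of all 12 libraries, and replicate 3 stood with the knockout sham hearts. The difference of the TAC effects was 0.93 ± 0.29 with all libraries (limma-trend, adjusted p = 0.137) and 1.23 without knockout TAC replicate 3 (adjusted p = 0.0142). Within the knockouts B2m differed by 0.63 ± 0.20 after TAC and Parp14 by 0.42 ± 0.14 (limma-trend, adjusted p = 0.631 and 0.631). The difference of the TAC effects was 0.93 ± 0.30 for Bst2 and 0.94 ± 0.32 for Gbp3 (limma-trend, adjusted p = 0.147 and 0.173).

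Cxcl10, a chemokine that attracts T cells, had 14.5, 15.5 and 5.45 normalised reads in knockout TAC hearts, 2.03, 2.74 and 5.43 in knockout sham hearts, 38.9, 8.24 and 2.80 in control TAC hearts and 9.59, 24.7 and 9.33 in control sham hearts. Control TAC hearts spanned nearly its whole range. It lay lower in all knockout sham than in all control sham hearts (-1.76 ± 0.72, limma-trend, adjusted p = 0.934).

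Gbp3, at chr3:142560026-142573209, plus strand (GRCm38), was the one gene of the set that passed between genotypes after TAC (2.56% of the set, against 8.23% of all tested genes called). In some alternative settings Tap1 passed too, as given above. Of the 39, 23 lay above the control TAC level (51.3% of all tested genes did), with a median of 0.08. Leaving out 1 library gave 17 to 28 genes and medians from -0.04 to 0.23, with 17 above and 22 below it without control TAC replicate 2. Of the 39, 6 had an unadjusted p under 0.05 (25% of all tested genes did). Gbp3, Igtp, Iigp1, Irf1 and Tap1 lay above it without overlap (15.6% of all tested genes) and Dtx3l below it (15.5%). Gbp3 had 313, 222 and 152 normalised reads in knockout TAC hearts, 153, 135 and 177 in knockout sham hearts, 124, 101 and 128 in control TAC hearts and 126, 172 and 184 in control sham hearts. The 3 knockout TAC hearts lay above the 3 control TAC hearts, with a difference of 0.90 ± 0.23 on the log2 scale or 1.87-fold (limma-trend, adjusted p = 0.0251). Knockout TAC replicate 1 gave the highest value and replicate 3 lay among the sham hearts. The call was lost without control TAC replicate 1 or 2 and without knockout TAC replicate 1 or 2, with adjusted p up to 0.141, while without knockout TAC replicate 3 the difference was 1.16 (limma-trend, adjusted p = 0.00448). It held with the length and GC trend taken out (0.87, adjusted p = 0.0401). Without knockout TAC replicate 3, B2m, Bst2, Tap1 and Trim25 passed besides Gbp3, Trim25 as lower and the others as higher in the knockouts. After sham surgery Gbp3 differed by -0.04 ± 0.23 (limma-trend, adjusted p = 0.988). Gbp2, Gbp3 and Gbp7 are related genes within 1 cluster on chromosome 3, so shared reads could be split between them.

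The other GTPases lay above the control TAC level too, by 0.43 ± 0.28 for Gbp2, 0.30 ± 0.23 for Gbp7, 0.90 ± 0.41 for Igtp, 0.38 ± 0.30 for Irgm1 and 0.49 ± 0.36 for Iigp1, and none of these passed. Igtp, the most abundant of the IRG genes, had 279, 287 and 180.0 normalised reads in knockout TAC hearts, 132, 163 and 231 in knockout sham hearts, 167, 108 and 121 in control TAC hearts and 194, 623 and 176 in control sham hearts. Control sham replicate 2 was far above the other control sham hearts, and the difference after TAC in controls was -1.09 ± 0.41 with it and -0.50 without it (limma-trend, adjusted p = 0.0792 and 0.186). Igtp and Irgm2 overlap on the same strand.

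**Figure D4:**
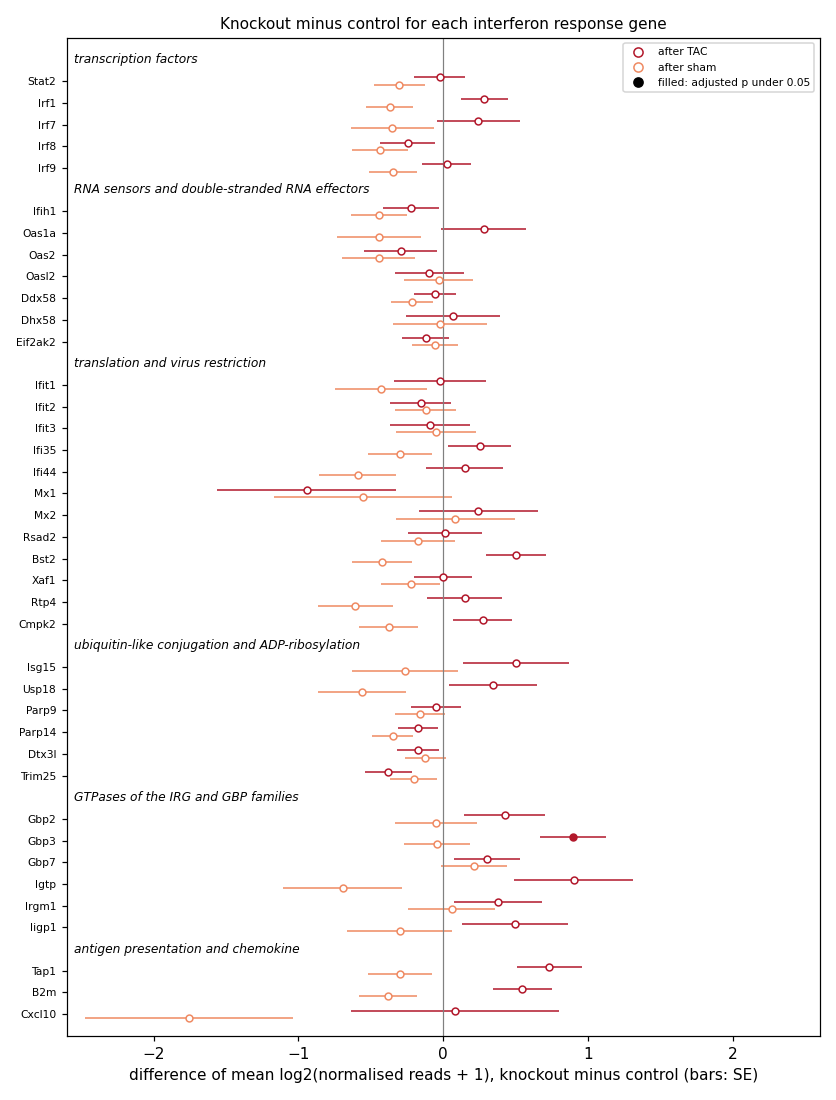
Difference between knockouts and controls for each of the 39 genes, after TAC in dark red and after sham surgery in orange, in log2(normalised reads + 1), with bars of 1 SE; filled points passed at an adjusted p under 0.05. Orange points lie left of 0 for 36 genes, and Gbp3 after TAC is the one filled point.

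After sham surgery 36 of the 39 genes were lower in knockouts than in controls, against 45.4% of all tested genes, with a median difference of -0.30 on the log2 scale, and none passed (0%, as for all tested genes). At an unadjusted p under 0.05 there were 7, all lower (17.9%, against 1.92% of all tested genes), and edgeR and DESeq2 called none at an adjusted p under 0.05. All 5 transcription factors, all 7 RNA sensors and double-stranded RNA effectors and all 6 genes of ubiquitin-like conjugation and ADP-ribosylation lay lower in the knockouts. Only Gbp7, Irgm1 and Mx2 lay higher. In 7 of the 39 every knockout sham heart was below every control sham heart (17.9%, against 4.68% of all tested genes): Irf8, Ifih1, Oas1a, Oas2, Ifi44, B2m and Cxcl10. Leaving out 1 library at a time gave 1 to 9 genes above 0 and medians from -0.49 to -0.18, and without control sham replicate 3 the values were 6 genes and -0.18.

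The smallest p in this comparison came from Parp14, whose values are given above, at -0.35 ± 0.14 (limma-trend, adjusted p = 0.934). Rtp4, a receptor chaperone with antiviral activity, had 114, 128 and 63.3 normalised reads in knockout TAC hearts, 62.1, 63.9 and 80.5 in knockout sham hearts, 91.9, 72.1 and 102 in control TAC hearts and 79.9, 122 and 118 in control sham hearts, and a difference of -0.61 ± 0.26 after sham. Ifih1, the sensor MDA5 of long double-stranded RNA, had 153, 144 and 97.1 normalised reads in knockout TAC hearts, 83.4, 86.7 and 111 in knockout sham hearts, 171, 142 and 141 in control TAC hearts and 129, 124 and 127 in control sham hearts. Its knockout sham hearts lay below all its control sham hearts, a difference of -0.44 ± 0.19, and in the knockouts its TAC hearts differed from sham by 0.47 ± 0.19 with an overlap. Ifi44, an interferon-induced protein, had 113, 96.5 and 54.5 normalised reads in knockout TAC hearts, 33.6, 54.7 and 50.7 in knockout sham hearts, 74.6, 84.5 and 69.0 in control TAC hearts and 71.4, 61.7 and 73.8 in control sham hearts. Knockout TAC replicates 1 and 2 were above all other libraries, and the difference after TAC in the knockouts was 0.88 ± 0.27, the largest of the set there after Cxcl10 (limma-trend, adjusted p = 0.603). The 3 knockout sham hearts enter both the sham comparison between genotypes and the TAC comparison within knockouts, so the same low values appear in both.

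Averaged over both surgeries none of the 39 genes differed between genotypes (0%, against 0.632% of all tested genes), with 12 above and 27 below the controls (47.3% of all tested genes were below), and 5 at an unadjusted p under 0.05 (16.7% of all tested genes). edgeR and DESeq2 called none either. Trim25, the ligase that activates the RNA sensor Ddx58, had 440.3, 366 and 571 normalised reads in knockout TAC hearts, 551, 520.0 and 469.5 in knockout sham hearts, 653, 595 and 521 in control TAC hearts and 522, 577 and 685 in control sham hearts. Its difference averaged over both surgeries was -0.29 ± 0.11, against -0.34 ± 0.14 for Irf8, -0.26 ± 0.10 for Parp14 and 0.43 ± 0.16 for Gbp3 (limma-trend, adjusted p = 0.212, 0.216, 0.196 and 0.192).

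Of the other genes, the RNA sensors and effectors Oas1a, Oas2, Oasl2, Ddx58 and Dhx58 had differences after TAC from -0.02 to 0.69 in knockouts and from -0.11 to 0.26 in controls. Oas1a and Oas2 make the messenger that activates RNase L in mice, Ddx58 is the sensor RIG-I, and Dhx58 modulates Ddx58 and Ifih1. The viral restriction genes Ifit3, Ifi35, Mx1, Mx2, Rsad2, Xaf1, Rtp4 and Cmpk2 ranged from 0.06 to 0.50 in knockouts and from -0.38 to 0.50 in controls. Rsad2, or viperin, and its neighbour Cmpk2 on chromosome 12 make an altered nucleotide that ends viral RNA synthesis, and they stood at 0.31 ± 0.26 and 0.36 ± 0.21 in knockouts, against 0.13 ± 0.26 and -0.29 ± 0.21 in controls. Isg15, the ubiquitin-like modifier, and Usp18, the protease that removes it, lay at 0.46 ± 0.36 and 0.34 ± 0.30 in knockouts, against -0.30 ± 0.36 and -0.56 ± 0.30 in controls. None of these passed in either genotype.

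Hearts of 1 group differed from each other in the set as a whole. The mean log2 deviation over the 39 genes was 0.31, 0.21 and -0.11 in knockout TAC hearts, -0.31, -0.36 and -0.01 in knockout sham hearts, 0.19, -0.16 and -0.01 in control TAC hearts and -0.21, 0.29 and 0.17 in control sham hearts. Knockout TAC replicate 3 was the lowest of its group for 27 of the 39 genes (69.2%, against 40.6% of all tested genes). Knockout sham replicate 3 was the highest of its group for 30 (76.9%, against 32.3%), and control sham replicate 1 the lowest for 28 (71.8%, against 31.9%).

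The monocyte and macrophage markers, whose cells can carry the interferon program, moved in part with these library levels. Their summed level over 14 genes was 5491, 6249 and 3912 normalised reads in knockout TAC hearts, 4881, 4337 and 4392 in knockout sham hearts, 6143, 4139 and 4316 in control TAC hearts and 4866, 6145 and 4884 in control sham hearts. The highest library of the markers within the control TAC and control sham groups was also the highest of the interferon set. Knockout TAC replicate 3 was the lowest of its group in both, but the markers were highest in replicate 2 there and the interferon set in replicate 1. In knockout sham hearts replicate 3, the highest of the interferon set, was not the highest of the markers. All 14 markers were tested, none was at 0 in all libraries, and none passed in any of the 7 comparisons. In bulk RNA, fewer cells of a type and less RNA per cell cannot be told apart, and the part of macrophages in the differences was not tested.

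Other immune cells left few reads. Per library, Cd3e of T cells had 0 to 5, and Siglech and Ccr9 of plasmacytoid dendritic cells, the main makers of type I interferon, 0 to 13 and 0 to 8, while Ly6g of neutrophils had none in any library. Only 2 genes of the plasmacytoid list were tested, and 1 of them fell after TAC in controls. The list's summed level, 15459 to 16571 normalised reads in control TAC hearts, came almost wholly from its other genes, Cox6a2, Klk1 and Tcf4. With Siglech and Ccr9 at so few reads, that sum cannot be taken as a level of plasmacytoid dendritic cells. Which cells its reads came from was not tested. Markers of the heart's own tissues differed between the groups compared, where 21.6% of all tested genes were called after TAC in controls and 8.23% between genotypes after TAC. None of 8 endothelial markers passed in any comparison, but all 8 lay below sham after TAC in controls, 4 lay above it in knockouts, and 7 lay above the control TAC level in the knockout TAC hearts. Their summed level was 14116 to 15509 in knockout TAC, 14587 to 15655 in knockout sham, 13215 to 13969.7 in control TAC and 13729 to 22898 in control sham hearts, so the control TAC hearts lay below the knockout TAC hearts without overlap. Of 7 mesothelial markers 5 fell after TAC in controls, and their summed level was 198 to 416 in knockout TAC, 202 to 403 in knockout sham, 61.5 to 193 in control TAC and 214 to 548 in control sham hearts. Of 9 cardiomyocyte markers 1 rose and 4 fell after TAC in controls, and 5 were higher and 1 lower in knockout than control TAC hearts, with sums of 1051901 to 1140951, 1157033 to 1233239, 871388 to 948512 and 1027526 to 1080378 in the same order of groups. Of 6 fibroblast markers 1 rose after TAC in controls and 3 were lower in knockout than control TAC hearts, with sums of 8168 to 11151, 9655 to 10425, 12925 to 14090.0 and 9533 to 11832. Of 5 red cell markers 3 fell after TAC in controls and 2 were higher in knockout than control TAC hearts, with sums of 3138 to 10438, 4489 to 5865, 2403 to 4113 and 6154 to 6724. Their part in the interferon set's differences was not tested.

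Interferons themselves were barely seen. Of 21 interferon genes 18 had no read in any library, and the others had 5 reads in all among 142414250, 1 of Ifng, 2 of Ifnab and 2 of Ifnz. A count of 0 over all libraries allows up to 0.0211 CPM (reads scaled to library size), a limit that covers counting error only.

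Of 9 receptor chains and kinases, 1 passed: Il10rb, a chain of the receptor for interferon lambda and for interleukin 10, with 1445, 1505 and 1322 normalised reads in knockout TAC hearts, 1303, 1472 and 1329 in knockout sham hearts, 1021, 1103 and 1025 in control TAC hearts and 1211, 1270.3 and 1033 in control sham hearts. It was 0.44 ± 0.12 higher in knockout than in control TAC hearts (limma-trend, adjusted p = 0.0349), where 8.23% of all tested genes were called. None of the 9 passed after TAC in either genotype, and their medians there were 0.06 in knockouts and 0.12 in controls. Of 11 negative regulators of the pathway, Ptpn11, the phosphatase SHP2, rose after TAC in controls, with 3488, 3039 and 3206 normalised reads in knockout TAC hearts, 2968, 3397 and 3297 in knockout sham hearts, 4635, 4306 and 4420.1 in control TAC hearts and 3698, 3371 and 1959 in control sham hearts (0.62 ± 0.18, limma-trend, adjusted p = 0.0239), and Irf2bp1 and Pias4 fell on average over both genotypes, with differences of -0.46 ± 0.11 and -0.33 ± 0.11 (adjusted p = 0.0158 and 0.0476). Of all tested genes 21.6% were called after TAC in controls and 14.4% on average over both genotypes. Control sham replicate 3 was the lowest of all libraries for Ptpn11, and without it the difference was 0.33 (limma-trend, adjusted p = 0.0324). The calls of Ptpn11, Irf2bp1 and Pias4 were lost with the length and GC trend taken out, and leaving out 1 library ended them in 3, 1 and 9 of the 12 settings. Pias4 was also lost without the filter on low values and without robust moderation. The call of Il10rb was lost without the filter on low values and in 8 of the 12 settings that left out 1 library.

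Among 19 tested genes of nucleic acid sensing upstream of interferon, 2 subunits of RNase H2, an enzyme that removes RNA from DNA hybrids, fell after TAC in controls and no other gene of the list passed there, where 21.6% of all tested genes were called. Rnaseh2c had 140.0, 129 and 131 normalised reads in knockout TAC hearts, 164, 135 and 148 in knockout sham hearts, 101, 116 and 90.4 in control TAC hearts and 153, 161 and 177 in control sham hearts (-0.68 ± 0.16, limma-trend, adjusted p = 0.00754), and Rnaseh2a fell by a like amount (-0.59 ± 0.16, adjusted p = 0.0182). Every control TAC heart lay below every control sham heart for Rnaseh2c, but with the length and GC trend taken out neither passed (-0.24 and -0.45). Of 24 alternative settings, 2 ended the call of Rnaseh2c and 5 that of Rnaseh2a. Tlr8, an endosomal RNA sensor, rose on average over both genotypes at a low level, with 16.4, 5.55 and 13.1 normalised reads in knockout TAC hearts, 8.14, 4.56 and 1.81 in knockout sham hearts, 40.01, 27.8 and 13.1 in control TAC hearts and 9.59, 11.4 and 1.70 in control sham hearts (1.51 ± 0.46, limma-trend, adjusted p = 0.0375), a call also lost with the trend taken out. The call of Tlr8 was lost in 8 of 22 alternative settings. In that averaged comparison 14.4% of all tested genes were called.

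A wider list of 68 tested interferon-induced genes outside the set was compared with it. After TAC in controls 4 rose and 9 fell (21.6% of all tested genes were called), in knockouts none passed, and 52 of 68 lay above sham in knockouts and 24 of 68 in controls. The 4 with the smallest p in controls were Tapbp, Psme1, Tap2 and Psmb8. Psmb8, a subunit of the immunoproteasome, had 258, 257 and 144 normalised reads in knockout TAC hearts, 146, 142 and 180.0 in knockout sham hearts, 101, 94.8 and 128 in control TAC hearts and 180.1, 184 and 250.1 in control sham hearts. All control TAC hearts lay below all control sham hearts and below all knockout TAC hearts. The difference after TAC in controls was -0.92 ± 0.22 (limma-trend, adjusted p = 0.0089), and that between knockouts and controls after TAC was 0.98 ± 0.22 (adjusted p = 0.0144).

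Psme1, a subunit of the proteasome activator PA28, had 1475, 1640.4 and 1317 normalised reads in knockout TAC hearts, 1749, 1654 and 1575 in knockout sham hearts, 859, 967 and 987 in control TAC hearts and 1320.1, 1574 and 1738 in control sham hearts. It fell after TAC in controls (-0.71 ± 0.13, limma-trend, adjusted p = 0.00199) and was higher in knockout than in control TAC hearts (0.65 ± 0.13, adjusted p = 0.00942). Tapbp, or tapasin, which bridges the transporter and MHC class I, and Tap2, the partner of Tap1, fell in controls too, with differences of -0.66 ± 0.12 and -0.62 ± 0.15 (limma-trend, adjusted p = 0.00178 and 0.0086). The falls of Psmb8, Psme1, Tapbp and Tap2 in controls passed in all 24 alternative settings tried, while the calls of Psmb8 and Psme1 between genotypes were lost in 4 and 3 of the 12 settings that left out 1 library. Set beside them, Tap1 and B2m of the set itself lay at -0.54 ± 0.22 and -0.30 ± 0.20 in controls and did not pass. Rnf213, a large ubiquitin ligase, went the other way, with 663, 507 and 884 normalised reads in knockout TAC hearts, 533, 659 and 643 in knockout sham hearts, 1339, 1278 and 1149 in control TAC hearts and 719, 572 and 932 in control sham hearts, and was lower in knockout than in control TAC hearts (-0.91 ± 0.19, limma-trend, adjusted p = 0.0115), a call that was lost with the length and GC trend taken out (-0.24). The call of Rnf213 was lost in 6 of 24 alternative settings.

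On average over both genotypes 6 of the 68 rose and 2 fell after TAC, where 14.4% of all tested genes were called. Herc6, the ligase that attaches Isg15 in mice, had 71.5, 53.2 and 67.6 normalised reads in knockout TAC hearts, 33.6, 45.6 and 37.1 in knockout sham hearts, 97.3, 106 and 60.6 in control TAC hearts and 30.9, 44.6 and 51.7 in control sham hearts, and Trim30a had 159, 146 and 125 normalised reads in knockout TAC hearts, 85.5, 115 and 82.3 in knockout sham hearts, 158, 151 and 138 in control TAC hearts and 82.0, 121 and 103 in control sham hearts. Every TAC heart exceeded every sham heart of its genotype for both, with average differences of 0.87 ± 0.19 and 0.59 ± 0.13 (limma-trend, adjusted p = 0.00803 and 0.0102). Both calls were lost with the length and GC trend taken out (0.58 and 0.36).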

How the data were processed

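Polyadenylated RNA of left ventricle apex was sequenced in 12 libraries from a stranded kit, per the labels' protocols. The submitters' processing notes name the build GRCm38.p6 and the tools STAR, featureCounts and SAMtools, without versions, annotation or strand setting. The deposited values are a normalised signal: each library has 1 scaling factor, and dividing it out gave whole reads for 100% of values within 0.01. The factors equalled median-of-ratios factors recomputed from those reads. Genes that reached 10 normalised reads in 3 or more libraries (13916 of 56350) were tested with limma 3.58.1 in R 4.3.3 (limma-trend, robust) on log2(value + 1), a scale that understates changes of low genes, with 4 group means over all 12 libraries. P-values were Benjamini-Hochberg adjusted over all tested genes within each of 7 comparisons, at 0.05. edgeR 4.0.16 and DESeq2 1.42.0 on the recovered reads were alternatives. After TAC in controls edgeR called 1481 genes higher and 1521 lower, against 1533 and 1473 with limma.

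The members and lists were chosen with earlier results of these data known. Values in every library are given for the 5 transcription factors and, per comparison, for up to 8 members that passed, or the 4 with the smallest p where none did. Igtp was chosen after its values were seen. Of each pathway list up to 4 passing genes with the smallest p are named. Gene positions and overlaps came from GENCODE M21, which matched 55480 of 56350 gene IDs, and promoters from RefSeq. The fit was tested on simulated data. Libraries of 1 group differed by more than counting noise.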

Additional observations from a re-analysis of the deposited data

How the results depend on the processing

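Of the 39 genes, none passed for knockout against control after sham under any of 24 alternatives. For TAC against sham in controls (2 passed), the replicate block gave 1, the compared libraries alone 1, and the length and GC trend removed 0, with or without the block, while DESeq2 and the fit without robust moderation gave 3 each, with Igtp added; leaving out 1 library gave 0 to 5. For TAC against sham in knockouts (0), leaving out 1 library gave 0 to 1. For knockout against control after TAC (1), no filter, a filter of 50, the replicate block and edgeR gave 2 each, DESeq2 3 and the compared libraries alone 4; leaving out 1 library gave 0 to 5. For the difference of the TAC effects (0), DESeq2 gave 3 and leaving out 1 library 0 to 5. For the average over genotypes (5), no filter gave 1, DESeq2 6 and the trend removed 0, with or without the block; leaving out 1 library gave 1 to 7. For the average over surgeries (0), leaving out 1 library gave 0 to 1. The cause was not tested. Whether same-numbered replicates pair is not settled. Over 18 such pairs of libraries their deviations correlated from -0.07 to 0.25, with 3 over 0.1, and differently numbered pairs from -0.25 to 0.16. Median differences moved by less than the within-group SD of the libraries' mean over the 39 genes (0.21), which is not the error of a median. Leaving out 1 library still took medians across 0 for TAC against sham in controls (-0.21 to 0.02) and knockout against control after TAC (-0.04 to 0.23).

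Of 1364 alternative values for 58 named results, 1207 kept their direction and side of the threshold, 138 no longer passed, 13 newly passed and 6 reversed. Those 6 were Stat2 in controls without control sham replicate 3 (leaving out 1 library gave -0.21 to 0.11), Irf7 in knockouts without knockout sham replicate 1 (-0.07) or 2 (-0.06) or knockout TAC replicate 1 (-0.10 to 0.35), and Irf8 without control TAC replicate 3, in controls (-0.25 to 0.083) and in the difference of the TAC effects (-0.0025 to 0.33). With 3 libraries a group, genes of few reads such as Mx1 and Cxcl10 were the least precise.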
